A study of Homo sapiens with 18 samples.

Results

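The change in RNA levels between 6 h and 24 h after a scratch was compared between a skin and an oral human keratinocyte line, HaCaT and TIGK. For each gene the log2 change in HaCaT at 24 h against 6 h was set against the log2 change in TIGK over the same interval. The first minus the second, called the line difference here, is positive where HaCaT gained more or lost less than TIGK. All genes that passed a filter on low counts were taken, 17409 of 58735 in the count table, over 12 of the 18 libraries of the series.

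HaCaT is a keratinocyte line from adult skin that became immortal by itself, and TIGK is a line from gingiva, the gum, that was immortalised with telomerase. The 4 groups compared are HaCaT at 24 h, HaCaT at 6 h, TIGK at 24 h and TIGK at 6 h after scratching, with 3 libraries each. Unscratched cultures of both lines, with 3 libraries each at 0 h, entered the estimate of the spread and are quoted for orientation. Each tissue is represented by 1 immortal line, so tissue, donor and way of immortalisation cannot be told apart. No unscratched culture of 24 h was analysed here, so the effect of the scratch and that of the hours spent growing cannot be told apart either. Nothing in the labels says that the 3 libraries of a group came from separate cultures, so every p-value measures library-to-library spread only, and that spread may be technical.

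Keratinocytes at the edge of a scratch flatten, loosen their contacts and crawl over the matrix that they lay down, and later return to division and stratification. Growth factor and stress signals reach the nucleus through immediate-early genes such as EGR1 and FOS, NF-kB factors switch on chemokines that attract leukocytes, and interferon acts through its own transcription factors on antiviral genes that carry an interferon response element. Oral mucosa is known for faster closure and milder inflammation than skin, and the series asks which expression differences go with that.

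Between 6 h and 24 h the lines parted in both directions. The line difference was called for 3053 genes, 17.5% of those tested, by the quasi-likelihood test of edgeR at a false discovery rate of 0.05 over all genes. It was positive in 1541 of them (8.85%) and negative in 1512 (8.69%). Of the 991 called genes with a line difference of at least 1 on the log2 scale in either direction, 655 were positive and 336 negative, and limma on log2(FPKM + 1) called 1991 positive and 1471 negative. The median of the line difference over all genes tested was -0.02, and the median size of a called one was 0.74 on the log2 scale. Both lines changed widely by themselves. HaCaT had 6212 genes called between 24 h and 6 h (35.7%), of which 3068 rose (17.6%) and 3144 fell (18.1%). TIGK had 6390 (36.7%), of which 3092 rose (17.8%) and 3298 fell (18.9%). These shares are the background for every count of a gene list given here.

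**Figure D1:**
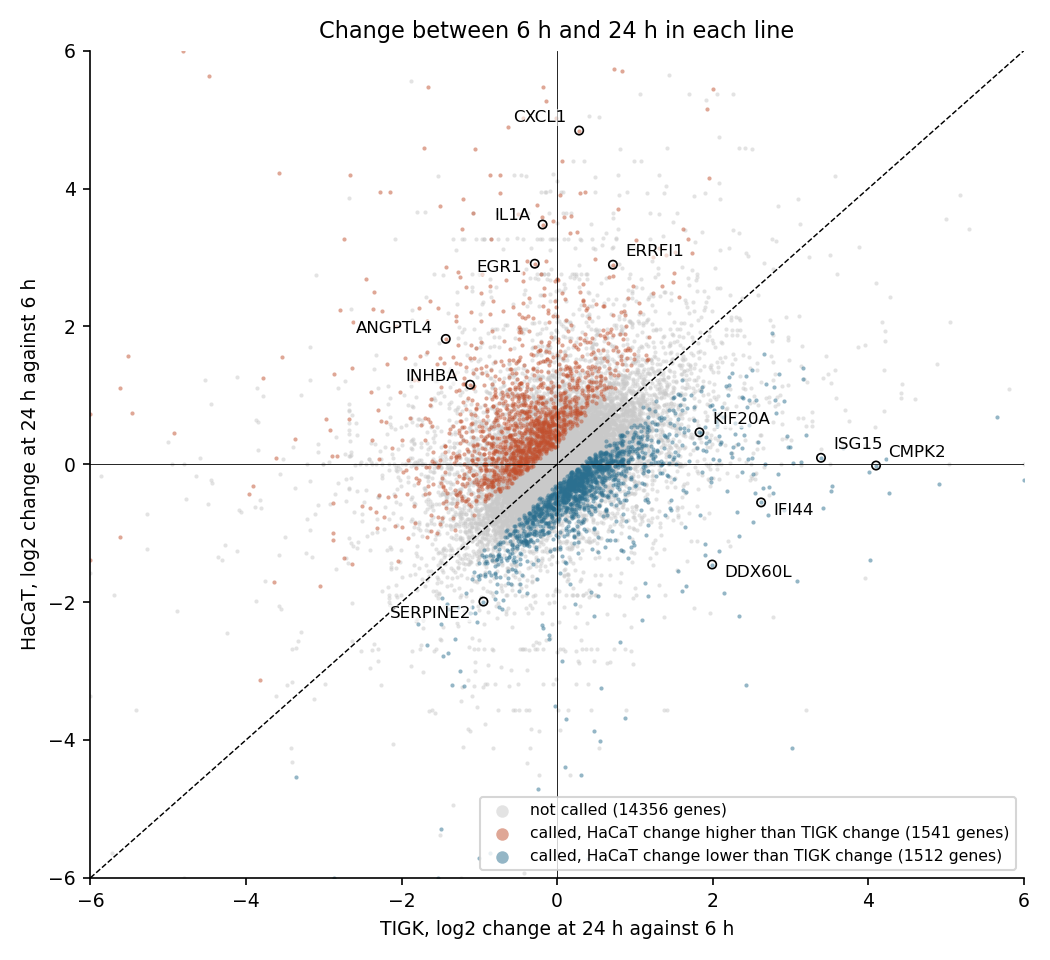
Change at 24 h against 6 h in HaCaT (vertical axis, log2) and in TIGK (horizontal axis, log2), 1 point per gene tested; the dashed line marks equal change, and 12 genes beyond 6 on either axis are drawn at the edge. Orange genes were called with a higher change in HaCaT (1541), blue genes with a lower one (1512), and CXCL1, EGR1 and ANGPTL4 lie far above the line of equal change, ISG15 and CMPK2 far to the right of it.

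The called genes were sorted by what each line did. In 549 of them HaCaT rose and TIGK was not called, and in 525 TIGK rose and HaCaT was not called. HaCaT fell with TIGK not called in 474, and TIGK fell with HaCaT not called in 447. Both lines fell in 320, with HaCaT falling further in 228 of them, and both rose in 274, with HaCaT rising further in 152. The lines went opposite ways in 372 genes: HaCaT rose and TIGK fell in 253, and HaCaT fell and TIGK rose in 119. The remaining 92 were called in neither line alone.

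The gap between the lines did not move in 1 direction. Among the called genes, 1077 (35.3%) had a narrower gap at 24 h than at 6 h, with a median absolute log2 difference between HaCaT and TIGK of 0.53 at 24 h, against 1.35 at 6 h. In 949 (31.1%) the gap was wider, with medians of 1.26 at 24 h and 0.51 at 6 h. In 1027 (33.6%) the line that stood higher at 6 h stood lower at 24 h, with medians of 0.40 at 24 h and 0.37 at 6 h. These sides were taken from the sign of the estimates, and no call of the gap was asked for at either time. The genes were sorted by the same estimates that the medians summarise, so the direction of the medians in the narrower and wider groups follows from the sorting.

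**Figure D2:**
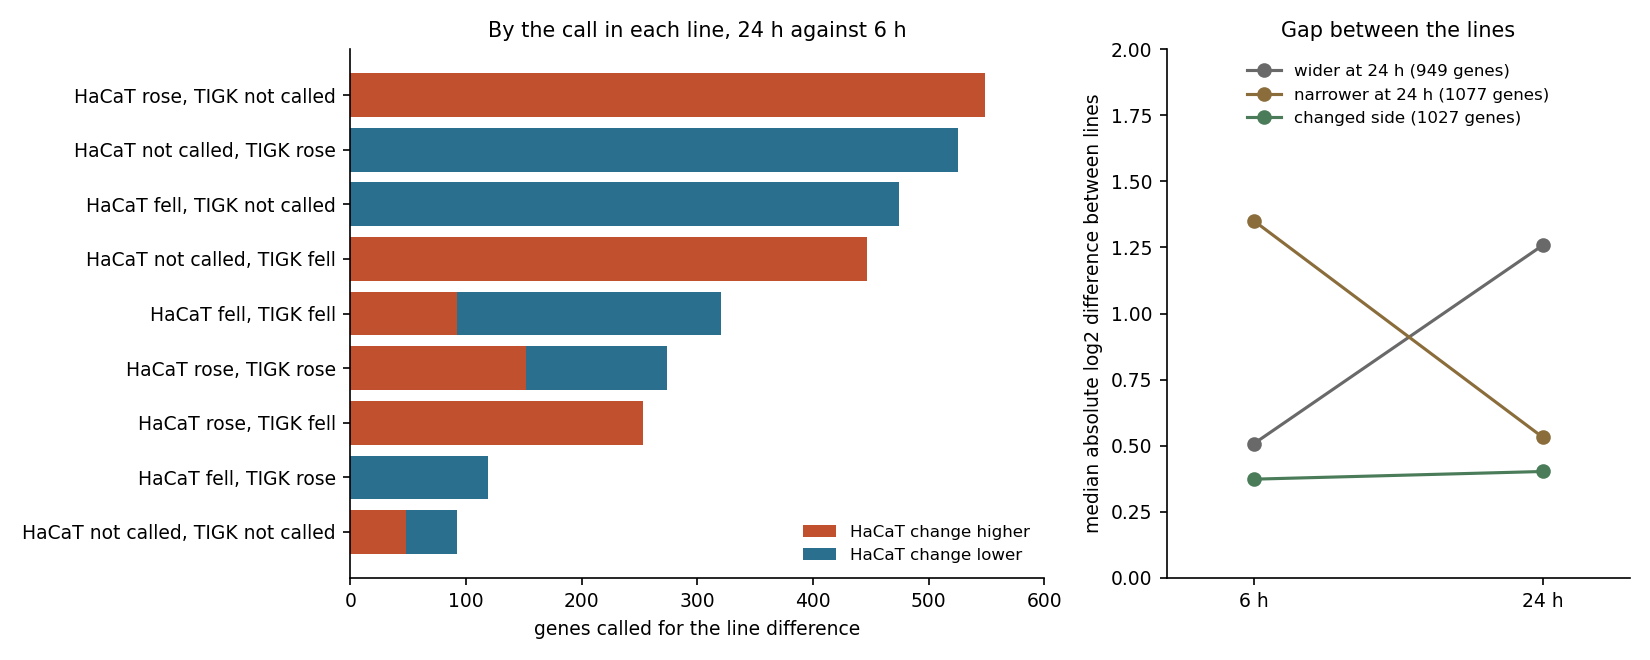
Left, the number of genes called for the line difference, by the call of each line at 24 h against 6 h; orange marks a higher change in HaCaT and blue a lower one. Right, the median absolute log2 difference between the lines at 6 h and at 24 h for called genes whose gap widened (949), narrowed (1077) or changed side (1027).

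The 12 libraries held 14238090 to 18039684 counted reads. Keratinocyte markers summed to 37200 to 40800 CPM (reads scaled to a common library size, by TMM factors) in HaCaT at 24 h and 36800 to 39800 at 6 h, and to 37600 to 42000 CPM in TIGK at 24 h and 36800 to 37300 at 6 h, so keratinocyte genes were high in all 4 groups. Fibroblast markers, 8 genes led by COL1A1 and DCN, summed to 37.7 to 40.8 CPM in HaCaT at 24 h and 21.0 to 23.8 at 6 h, and to 391 to 435 in TIGK at 24 h and 241 to 289 at 6 h, and markers of melanocytes, immune cells and endothelium summed to at most 8.15 CPM in any library. Among the fibroblast markers COL1A2, THY1 and PDGFRA were at or near 0 in both lines. The part of such cells in the results was not tested. The letter C library of TIGK at 6 h stood apart, with 25161 genes holding a read and 4.98% mitochondrial reads, where the other 11 held 21164 to 22364 genes and 6.10% to 7.82%; without it 3049 genes were called. By the chi-square of counts per gene, letter C of TIGK at 24 h lay about as far from its group, at 16.2 and 12.3 from letters A and B, which lay 6.59 apart, as letter C at 6 h (16.1 and 15.1, against 3.33). Without the letter C library of 24 h, 2808 genes were called. The strand setting of the counting is not given in the sources used here. Reads of a gene and of an overlapping gene on the other strand thus cannot be told apart. Such overlap covers 12.5% (PLK1) to 27.1% (NGFR) of the exon bases of PLK1, CYP1B1, ALDOA, PHLDA1, PER3, PSMB8 and NGFR.

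Among the lists, the lowest median line difference was that of the interferon-stimulated genes, whose products block viral replication and sense viral RNA. Of 44 tested, 38 were called with a lower change in HaCaT, and the other 6 were not called. In TIGK all 44 rose between 6 h and 24 h, with a median log2 change of 2.40. In HaCaT 10 rose and 2 fell, with a median of 0.24. The median line difference was -1.93, against -0.02 over all genes tested. Since RNA came from bulk cultures, fewer cells with a response and less RNA per cell cannot be told apart, here or below. Summed over the list, the level was 952 CPM in HaCaT at 24 h and 859 at 6 h, and 13450 CPM in TIGK at 24 h and 2814 at 6 h.

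ISG15, a ubiquitin-like modifier (chromosome 1, 1001138 to 1014540, hg38), stood at 20.4, 20.1 and 17.6 CPM in HaCaT at 24 h, against 21.4, 14.1 and 19.1 at 6 h. TIGK held 953, 796 and 1296 CPM at 24 h, against 100.3, 114 and 75.2 at 6 h. The HaCaT groups overlapped, and the 24 h libraries of TIGK all lay above its 6 h libraries. Its line difference was -3.30 ± 0.23 (log2 ± SE, adjusted p = 3.8e-10), and the gap between the lines was already -2.41 ± 0.16 at 6 h and reached -5.71 ± 0.18 at 24 h. IFI6, a mitochondrial and endoplasmic reticulum protein that restrains viral replication, stood at 4.83, 2.86 and 6.2 CPM in HaCaT at 24 h and 4.83, 4.34 and 6.27 at 6 h. In TIGK the level was 1373, 1242 and 1767 CPM at 24 h and 238, 244 and 132 at 6 h, the lowest of these in letter C. The HaCaT groups overlapped again, and those of TIGK did not. Without that library the line differences were -2.75 for IFI6 and -3.15 for ISG15, and 39 genes of the list were called lower. Letter C of TIGK at 24 h held the highest ISG15 and IFI6 levels of its group, and without it 37 genes of the list were called lower.

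Other genes of this kind took part in sensing, signalling and blocking of viruses. CMPK2, a mitochondrial nucleotide kinase next to RSAD2 in the genome, had the most negative line difference among called protein-coding genes that averaged at least 1 CPM in each of the 4 groups and 10 CPM in 1 of them, at -4.12 ± 0.54 (adjusted p = 5.7e-06): it averaged 1.19 ± 0.808 CPM in HaCaT at 24 h and 1.21 ± 0.291 at 6 h, and 49.5 ± 7.65 in TIGK at 24 h and 2.92 ± 1.51 at 6 h (SD, n = 3). RSAD2, which makes viperin, stood at 1.46, 1.02 and 0.391 CPM in HaCaT at 24 h and 0.953, 0.672 and 1.1 at 6 h, and averaged 39.6 ± 10.3 CPM in TIGK at 24 h and 2.12 ± 0.479 at 6 h, a rise of 18.8-fold; below 1 CPM on average in HaCaT at both times, it had a line difference of -4.15 ± 0.69. The RNA sensors DDX58 and DDX60 had line differences of -2.99 ± 0.26 and -3.01 ± 0.19, and the 2'-5' oligoadenylate synthetases OAS1 and OAS2, which activate RNase L, had -3.05 ± 0.20 and -2.72 ± 0.30. IFIT1, which binds viral RNA caps, rose 9.19-fold in TIGK and stood at 7.06 ± 0.76 CPM in HaCaT at 24 h and 5.25 ± 1.24 at 6 h. IFITM1, a membrane protein that blocks viral entry, had -3.10 ± 0.24; 32.5% of its exon bases are shared with IFITM2, so its reads are uncertain.

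A few genes fell in HaCaT while they rose in TIGK, among them IFI44 and PARP12 of the list and DDX60L and TYMP outside it. DDX60L, a relative of DDX60, fell to 7.56, 5.66 and 7.31 CPM in HaCaT at 24 h, against 19.8, 18.5 and 18.1 at 6 h. It rose to 174, 141 and 146 CPM in TIGK at 24 h, against 42, 44.5 and 29.5 at 6 h. The libraries of 24 h and 6 h did not overlap in either line, and the line difference was -3.45 ± 0.21 (adjusted p = 4.7e-11). IFI44 (-0.55 in HaCaT, 2.62 in TIGK, log2 change at 24 h against 6 h), PARP12 (-1.05 and 0.93) and TYMP (-0.69 and 2.31) did likewise. TYMP encodes thymidine phosphorylase, and 20.7% of its exon bases are shared with ODF3B and SCO2.

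The upstream components of the pathway had calls both ways. Of 20 interferon ligands, receptors and signalling genes tested, 2 were called lower (SOCS1 and IRF2), 2 higher (IRF1 and IRF5) and 16 were not called, a share of 20%, near the 17.5% of all genes. IFNL1, a ligand of the lambda type, stood at 0.786, 0.914 and 1.44 CPM in TIGK at 24 h and had no read in the other 9 libraries of these groups; it rose in TIGK and was not called for the line difference. SOCS1, a feedback inhibitor of JAK kinases, averaged 4.5 ± 0.799 CPM in HaCaT at 24 h and 5.71 ± 1.14 at 6 h, and 41.2 ± 3.73 in TIGK at 24 h and 21.7 ± 6.89 at 6 h (line difference -1.28 ± 0.35, adjusted p = 0.012). IRF2 had -0.94 ± 0.19, and IRF5 0.67 ± 0.20, a call that was lost without letter A of TIGK at 24 h (adjusted p = 0.053) or letter B at 6 h (0.071). Of 17 antigen presentation genes, 8 were called lower and 9 were not called, with a median line difference of -0.53; 14 rose in TIGK and 3 in HaCaT. B2M, the light chain of class I molecules, stood at 444, 369 and 454 CPM in HaCaT at 24 h and 418, 436 and 451 at 6 h, with overlap. Its TIGK libraries held 659.9, 685 and 880.0 CPM at 24 h and 356, 363 and 319 at 6 h, without overlap. HLA-C, a class I heavy chain whose reads can be shared with its near relatives, had -1.20 ± 0.14, and PSMB8, an immunoproteasome subunit, -1.01 ± 0.14.

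Promoters of these genes were searched for the letters that interferon factors are known to bind. In the RefSeq promoter table (GRCh38.p14, 250 bases before to 50 after the start), 10938 of 13932 tested protein-coding genes had an entry. The interferon response element, searched as GAAANNGAAA on both strands, was found in 22 of 34 promoters of the interferon-stimulated list (64.7%) and in 9 of 14 of the antigen presentation list (64.3%). It was found in 2.80% of all tested promoters. It was in 6.18% of the promoters of genes called lower, 0.99% of those called higher and 2.59% of those not called. Outside the interferon and antigen lists, 46 of 1096 promoters of genes called lower held it (4.2%), and 22 of the 171 of genes called lower by at least 1 log2 unit (12.9%). Of such unlisted genes, IFITM3 (-2.17), EIF2AK2 (-1.32), TRIM14 (-1.37) and TRIM21 (-1.60) were named after their values were seen. The whole window of ISG15 (chr1:1013247-1013546, plus strand) and stretches of 3 further genes are shown to let the elements, in capitals, be compared. The matches in ISG15 overlap each other, and those in IFIT1 lie on the other strand. A match is a description of these letters and not a measured binding site.
ISG15: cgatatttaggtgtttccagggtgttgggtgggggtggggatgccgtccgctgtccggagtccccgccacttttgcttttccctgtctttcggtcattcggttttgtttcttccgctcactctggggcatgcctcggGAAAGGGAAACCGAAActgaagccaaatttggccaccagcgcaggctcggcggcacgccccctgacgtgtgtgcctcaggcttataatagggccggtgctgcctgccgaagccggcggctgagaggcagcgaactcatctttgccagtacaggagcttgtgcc
IFI6 (chr1:27672256-27672368, minus strand): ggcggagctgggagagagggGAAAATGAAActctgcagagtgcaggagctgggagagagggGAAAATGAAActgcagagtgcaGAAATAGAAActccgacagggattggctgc
DDX60 (chr4:168318776-168318860, minus strand): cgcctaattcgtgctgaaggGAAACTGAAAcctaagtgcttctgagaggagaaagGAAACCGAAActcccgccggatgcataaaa
IFIT1 (chr10:89392487-89392549, plus strand): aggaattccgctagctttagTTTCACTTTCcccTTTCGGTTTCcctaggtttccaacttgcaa

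Genes of mitosis also gained less in HaCaT. Of 36 G2/M genes tested, 29 were called lower and 7 were not called, with a median line difference of -0.66. In HaCaT 26 rose and 1 fell between 6 h and 24 h (median log2 change 0.45), and in TIGK 35 rose (median 1.03). Between the lines, the median gap of the list (HaCaT minus TIGK, log2) was 0.42 at 24 h and 1.09 at 6 h, HaCaT being higher at both times. KIF20A, a kinesin of cytokinesis (chromosome 5, 138178719 to 138187715), stood at 80.4, 79.7 and 79.4 CPM in HaCaT at 24 h and 57, 60.7 and 56 at 6 h. It stood at 112, 126 and 103 CPM in TIGK at 24 h and 29.6, 29 and 37.2 at 6 h. All 24 h libraries lay above those of 6 h in both lines, with a rise of 1.38-fold in HaCaT and 3.56-fold in TIGK (line difference -1.37 ± 0.16, adjusted p = 9.6e-07).

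CCNB1, the cyclin that drives entry into mitosis, fell in HaCaT and rose in TIGK. It averaged 113 ± 11.4 CPM in HaCaT at 24 h and 135 ± 7.96 at 6 h, and 106 ± 6.01 in TIGK at 24 h and 61.5 ± 5.79 at 6 h. PLK1, a kinase of mitotic entry, was not called in HaCaT and rose 1.77-fold in TIGK (line difference -0.96 ± 0.12). S-phase genes went the other way: of 37 tested, 16 were called higher and 21 were not called, with a median of 0.37, and 18 fell in TIGK while 11 rose and 7 fell in HaCaT. MCM7, a subunit of the replicative helicase, stood at 319 ± 8.94 CPM in HaCaT at 24 h and 293 ± 13.4 at 6 h, and at 263 ± 17.4 in TIGK at 24 h and 363 ± 8.41 at 6 h. The histone chaperone subunit CHAF1A and the DNA ligase LIG1 had line differences of 0.75 ± 0.13 and 0.74 ± 0.13. The E2F site, searched as TTTCCCGC on both strands, was found in 10 of 32 promoters of the S-phase list (31.2%), in 2.49% of all tested promoters and in 2.69% of those of genes called higher. The CHR element, searched as TTTGAA on both strands and known from cell cycle promoters, was found in 19 of 30 G2/M promoters (63.3%), 13.2% of those called lower, 6.37% of those called higher and 9.56% of those not called. The CCAAT box, searched on both strands, was in 24 of those 30 (80.0%) and in 36.1% of all tested promoters, with 36.2% of those called lower and 35.0% of those called higher. The element of PLK1, a textbook mitotic gene, ends 24 bases before the start and is shown in capitals as an example.
PLK1 (chr16:23678840-23678885, plus strand): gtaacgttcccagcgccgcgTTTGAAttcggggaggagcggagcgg

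Genes of ribosome biogenesis mostly fell in both lines, 15 of them further in HaCaT. Of 25 tested, 15 were called lower and 10 were not called; 23 fell in each line, with a median log2 change of -1.20 in HaCaT and -0.76 in TIGK. DKC1, the pseudouridine synthase of ribosomal RNA, stood at 75.6, 72.2 and 73.1 CPM in HaCaT at 24 h and 184, 183 and 189 at 6 h. TIGK libraries stood at 106, 114 and 114 CPM at 24 h and 192, 200.2 and 199 at 6 h. The groups did not overlap in either line, and the line difference was -0.51 ± 0.09 (adjusted p = 2.6e-04). BYSL, a factor of the small subunit, and POLR1B, a subunit of RNA polymerase I, had line differences of -0.73 ± 0.14 and -0.68 ± 0.14.

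More chemokine and cytokine genes rose between 6 h and 24 h in HaCaT than in TIGK. Of 25 tested, 10 were called higher, 3 lower (CCL5, TNFSF10 and IL18) and 12 were not called, with a median line difference of 0.92. In HaCaT 15 rose and 2 fell, and in TIGK 7 rose and 3 fell. Summed over the list, the level rose in both lines. It was 683.3 CPM in HaCaT at 24 h and 327.9 at 6 h, and 655.1 CPM in TIGK at 24 h and 312.5 at 6 h. CXCL1, a chemokine for neutrophils (chromosome 4, 73869393 to 73871242), had the largest positive line difference among called protein-coding genes that averaged at least 1 CPM in each group and 10 CPM in 1 of them, at 4.56 ± 0.49 (adjusted p = 3.2e-07). It stood at 37.7, 34 and 33.6 CPM in HaCaT at 24 h, against 1.21, 1.53 and 0.913 at 6 h. For TIGK the values were 0.589, 2.87 and 3.08 CPM at 24 h, against 2.2, 1.19 and 1.97 at 6 h. The HaCaT groups lay far apart, a 28.7-fold rise, and those of TIGK overlapped. Reads of CXCL1 can be shared with its near copies CXCL2 and CXCL3. TNF, also among the 10, stood at 4, 2.32 and 3.98 CPM in HaCaT at 24 h and at or below 0.313 CPM in every library of the other 3 groups, so no fold is given for it.

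CXCL8, another neutrophil chemokine, rose to 61.1, 54.7 and 69.9 CPM in HaCaT at 24 h, against 6.8, 3.91 and 4.75 at 6 h. It stood at 6.16, 6.6 and 7.25 CPM in TIGK at 24 h and 6.32, 7.71 and 4.86 at 6 h. The alarmin IL1A stood at 33, 35 and 35.6 CPM in HaCaT at 24 h and 2.86, 3.36 and 3.04 at 6 h, and at 6.7 ± 0.955 in TIGK at 24 h and 7.63 ± 2.12 at 6 h. IL1A had been lower in HaCaT than in TIGK at 6 h (-1.30 ± 0.20) and was higher at 24 h (2.37 ± 0.18), so the order of the lines changed. EDN2, an endothelin, rose in both lines, 13-fold in HaCaT and 1.72-fold in TIGK (line difference 2.92 ± 0.22).

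NF-kB subunits and feedback genes also gained more in HaCaT. Of 20 tested, 11 were called higher and 9 were not called, with a median line difference of 0.73; 15 rose in HaCaT and 4 in TIGK, where 6 fell. TNFAIP3, the ubiquitin-editing brake on NF-kB also called A20, stood at 261, 264 and 295 CPM in HaCaT at 24 h and 58.4, 60.2 and 66.2 at 6 h. The level in TIGK was 41, 33.2 and 33.6 CPM at 24 h and 50.3, 46.9 and 42.4 at 6 h. It rose 4.44-fold in HaCaT and fell in TIGK (log2 change -0.37 ± 0.10), and at 0 h, 6 h and 24 h it averaged 37.7, 61.6 and 274 CPM in HaCaT and 26.5, 46.5 and 35.9 in TIGK. TNFAIP2, a cytokine-induced protein of membrane protrusions, had a line difference of 3.09 ± 0.18, and NFKBIZ, a nuclear co-regulator of NF-kB, of 1.66 ± 0.16. The subunit genes NFKB2 (1.19) and RELB (1.00) were called, and RELA and NFKB1 were not; these 4 were picked after their values were seen.

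The NF-kB site, a motif of 10 bases searched by its usual consensus on both strands, was found in 9 of 19 cytokine promoters (47.4%) and 7 of 17 of the NF-kB list (41.2%), against 6.71% of all tested promoters. It was in 10.3% of promoters of genes called higher, 5.65% of those called lower and 6.39% of those not called. Outside the cytokine and NF-kB lists, 9.74% of the promoters of genes called higher held it. The window of CXCL1 (chr4:73869143-73869442, plus strand) holds a pair of matches that overlap in all but 1 base, and that of TNFAIP3 a pair side by side; matches are in capitals.
CXCL1: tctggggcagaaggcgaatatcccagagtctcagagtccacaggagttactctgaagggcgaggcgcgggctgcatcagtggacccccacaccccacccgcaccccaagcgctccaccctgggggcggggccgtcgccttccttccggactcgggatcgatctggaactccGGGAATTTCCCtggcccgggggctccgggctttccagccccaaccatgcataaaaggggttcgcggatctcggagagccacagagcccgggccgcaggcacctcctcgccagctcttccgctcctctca
TNFAIP3 (chr6:137867172-137867233, plus strand): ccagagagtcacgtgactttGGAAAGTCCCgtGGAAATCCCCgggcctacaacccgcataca

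**Figure D3:**
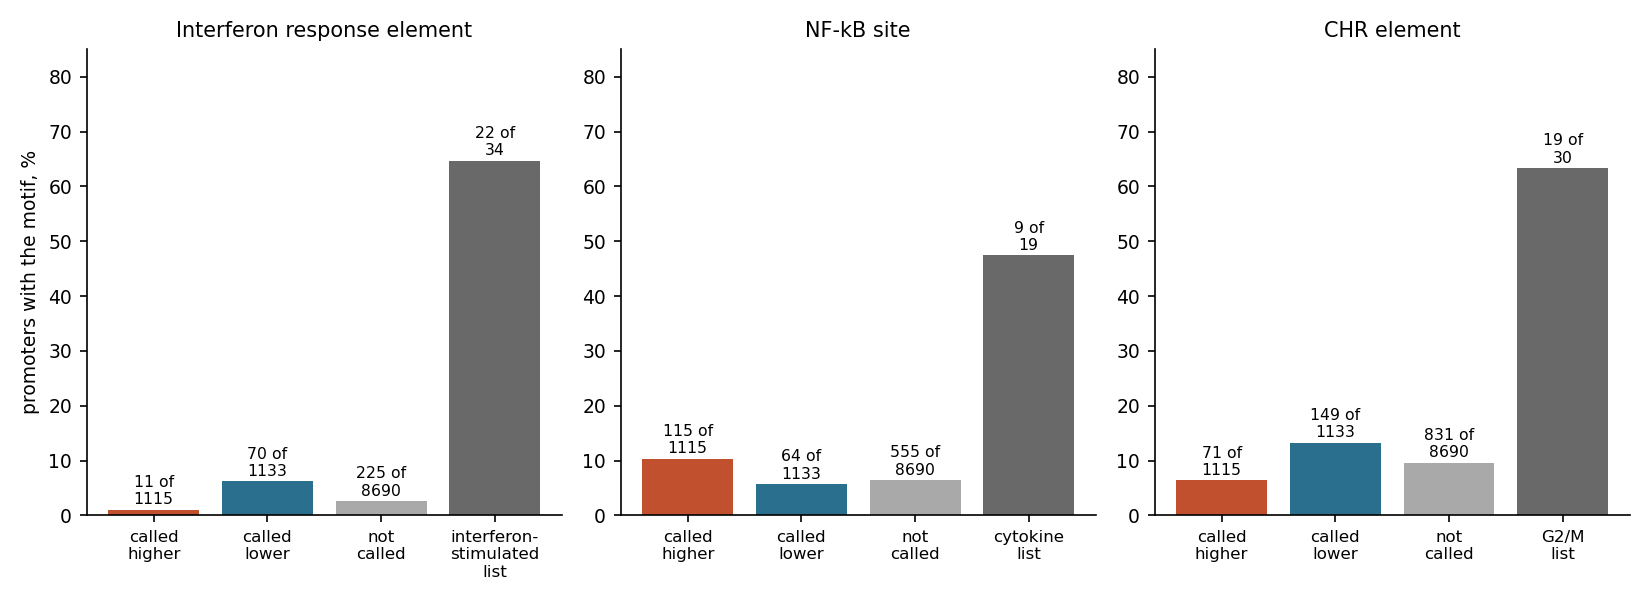
Share of promoters that hold the interferon response element, the NF-kB site or the CHR element (vertical axis, %), for protein-coding genes called higher, called lower or not called for the line difference, and for the gene list named; the numbers above the bars are promoters with the motif and promoters read. The interferon response element is in 6.18% of promoters of genes called lower and 0.99% of those called higher, and the NF-kB site in 5.65% of those called lower and 10.3% of those called higher.

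Immediate-early genes, which code for the fast transcription factors of growth factor and stress signals, gained more in HaCaT. Of 27 tested, 17 were called higher and 10 were not called, with a median line difference of 0.95. In HaCaT 18 rose and 1 fell (median log2 change 1.08), and in TIGK 8 rose and 7 fell (median -0.12). EGR1, a zinc finger factor (chromosome 5, 138465490 to 138469315), stood at 353, 416 and 392 CPM in HaCaT at 24 h, against 49.9, 51.3 and 53.1 at 6 h. In TIGK it stood at 37.9, 41.4 and 26.6 CPM at 24 h, against 49.6, 44.2 and 35.7 at 6 h. The HaCaT groups lay 7.52-fold apart and those of TIGK overlapped, for a line difference of 3.20 ± 0.20 (adjusted p = 4.7e-11). The gap between the lines was 3.45 ± 0.14 at 24 h and 0.26 ± 0.14 at 6 h, where it was not called.

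The AP-1 subunit FOS stood at 96 ± 5.54 CPM in HaCaT at 24 h and 17.6 ± 0.47 at 6 h, and at 22 ± 4.8 in TIGK at 24 h and 24.8 ± 6.16 at 6 h. FOSL2, another AP-1 subunit, rose in both lines, 3.58-fold in HaCaT and 1.37-fold in TIGK. EGR3 rose 4.24-fold in HaCaT and fell in TIGK (log2 change -0.98 ± 0.25). EGR1 is a textbook target of serum response factor, and its promoter window (chr5:138465229-138465528, plus strand) holds a pair of CArG boxes, the motif of 10 bases that this factor binds, shown in capitals. CArG boxes were found in 2 of 21 promoters of the list (9.52%), in 1.07% of all tested promoters and in 1.17% of those of genes called higher. The AP-1 site, searched as TGANTCA on both strands, was found in 1 of 21 promoters of the list (4.76%), in 4.75% of those called higher, 6.0% of those called lower and 4.65% of those not called. Among genes with a line difference of at least 1 log2 unit, it was in 6.5% of promoters called higher and 10.8% of those called lower.
EGR1: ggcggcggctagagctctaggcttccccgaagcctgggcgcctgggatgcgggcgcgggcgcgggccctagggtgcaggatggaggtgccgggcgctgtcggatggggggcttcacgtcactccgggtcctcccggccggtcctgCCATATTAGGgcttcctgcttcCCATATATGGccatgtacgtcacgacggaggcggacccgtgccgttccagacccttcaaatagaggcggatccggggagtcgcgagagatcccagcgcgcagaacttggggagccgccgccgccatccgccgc

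Feedback genes of the ERK kinases parted in the same direction, with a median log2 change of 0.27 in HaCaT and -0.71 in TIGK. Of 17 tested, 10 were called higher and 7 were not called, with a median line difference of 0.98; 8 rose and 6 fell in HaCaT, and 2 rose and 10 fell in TIGK. ERRFI1, an inhibitor of the EGF receptor, stood at 288, 298 and 324 CPM in HaCaT at 24 h, against 40.0, 38.7 and 43.7 at 6 h. TIGK held 222, 222 and 214 CPM at 24 h, against 134, 135 and 131 at 6 h. Neither line overlapped between times, with rises of 7.44-fold in HaCaT and 1.65-fold in TIGK (line difference 2.18 ± 0.10, adjusted p = 8.2e-13). DUSP10, a phosphatase of stress kinases, rose 6.1-fold in HaCaT and was not called in TIGK. PHLDA1 stood at 117 ± 7.26 CPM in HaCaT at 24 h and 97.1 ± 5.56 at 6 h, and at 72.5 ± 5.96 in TIGK at 24 h and 129 ± 11.6 at 6 h. Of 10 EGF receptor family genes, HBEGF, a ligand (1.99 ± 0.37), and the receptor gene ERBB2 (0.44 ± 0.10) were called higher and 8 were not called.

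**Figure D4:**
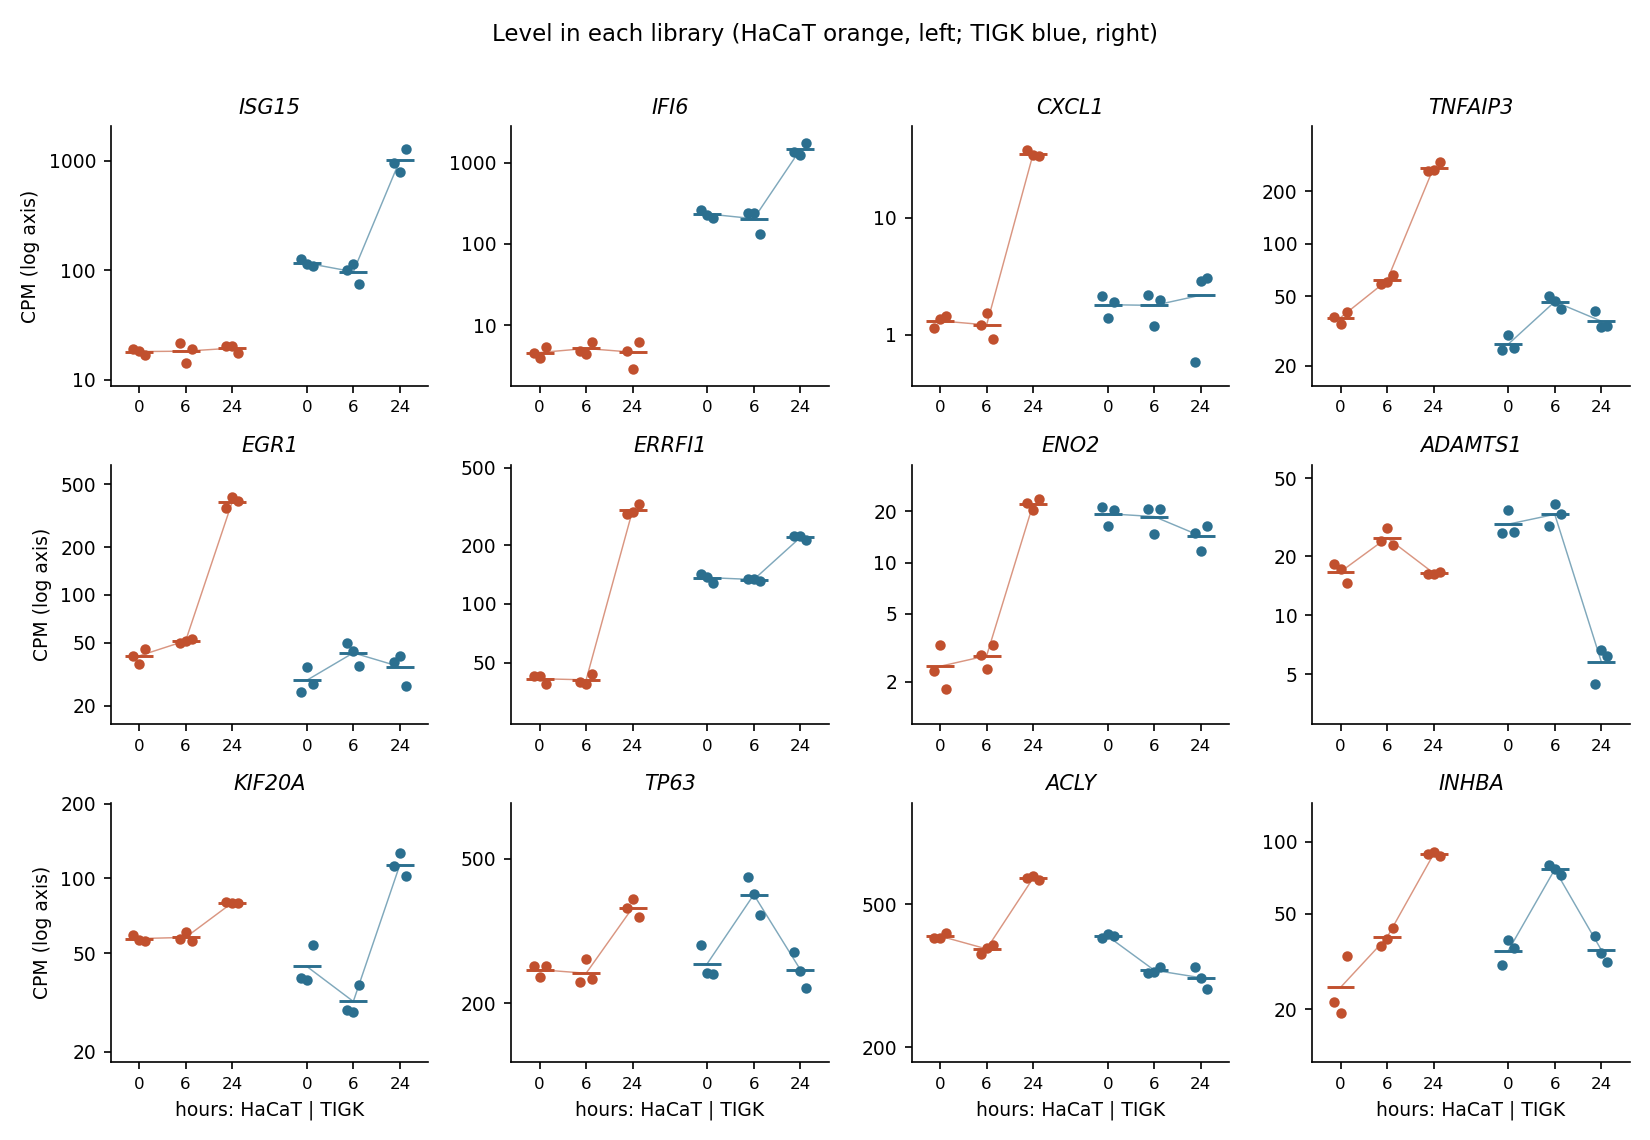
Levels of 12 genes in every library (CPM, log axis) at 0 h, 6 h and 24 h in HaCaT (orange, left) and TIGK (blue, right); points are libraries and bars their means. ISG15 and IFI6 climb in TIGK at 24 h, CXCL1, TNFAIP3, EGR1 and ENO2 climb in HaCaT at 24 h, and ADAMTS1 lies lower at 24 h than at 6 h in both lines.

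Of the lists described, that of hypoxia and glycolysis had the largest share of calls upward. Of 29 tested, 22 were called higher and 7 were not called, with a median line difference of 1.03, against -0.02 over all genes. In HaCaT 22 rose and 2 fell (median log2 change 0.76), and in TIGK 3 rose and 13 fell (median -0.28). ENO2, an enolase (chromosome 12, 6913745 to 6923698), stood at 22.3, 20.5 and 23.6 CPM in HaCaT at 24 h, against 2.86, 2.38 and 3.29 at 6 h. In TIGK the level was 14.9, 11.7 and 16.3 CPM at 24 h, against 20.6, 14.7 and 20.6 at 6 h. HaCaT lay above TIGK at 24 h (gap 0.63 ± 0.17) and below it at 6 h (-2.71 ± 0.20). HK2, a hexokinase that starts glycolysis, averaged 209.5 ± 17.3 CPM in HaCaT at 24 h and 93 ± 2.98 at 6 h, and 112 ± 12.6 in TIGK at 24 h and 146 ± 3.49 at 6 h. It rose in HaCaT and fell in TIGK, as did PFKFB3, which makes the activator of phosphofructokinase (log2 changes 0.92 and -0.67).

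EGLN3, an oxygen-sensing hydroxylase that marks hypoxia factors for decay, rose to 24.7, 22.1 and 29.3 CPM in HaCaT at 24 h, against 7.56, 7.39 and 7.92 at 6 h. It fell to 11.7, 14 and 13.5 CPM in TIGK at 24 h, against 34.3, 37.4 and 23.3 at 6 h. Neither pair of groups overlapped (line difference 3.01 ± 0.32). ALDOA, an aldolase, also had a large line difference, 2.82 ± 0.82 (adjusted p = 0.018), but its row is uncertain: it held a few CPM, 42.3% of its exon bases are shared with an overlapping gene on the same strand, and letter C of TIGK at 6 h held 26.6 CPM where letters A and B held 5.39 and 4.95. Without that library the ALDOA value was 1.55 (adjusted p = 0.11). The hypoxia response core, ACGTG on both strands, was found in 12 of 25 promoters of the list (48.0%), against 26.0% of all tested promoters and 23.5% of those of genes called higher.

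Genes of lipid synthesis gained more in HaCaT where they were called. Of 33 cholesterol and fatty acid synthesis genes, 16 were called higher and 17 were not called, with a median line difference of 0.36; 27 rose and 1 fell in HaCaT, and 16 rose and 4 fell in TIGK. ACLY, which supplies cytosolic acetyl-CoA, stood at 594, 599.9 and 584 CPM in HaCaT at 24 h and 364, 378 and 384 at 6 h. Its TIGK libraries held 336, 311 and 290.1 CPM at 24 h and 323, 324 and 335 at 6 h. HaCaT did not overlap between times and TIGK did (line difference 0.73 ± 0.09, adjusted p = 2.7e-06). LSS, lanosterol synthase, had 0.68 ± 0.09 and FADS1, a fatty acid desaturase, 0.77 ± 0.11. The sterol element, searched as TCACCCCA on both strands, was found in 2 of 25 promoters of the list (8.0%), in 1.28% of all tested promoters and in 1.79% of those of genes called higher. Of 8 genes listed for the sterol receptor LXR and its targets, MYLIP (0.74 ± 0.17) and the cholesterol export gene ABCA1 were called higher. The ABCA1 value of 1.51 ± 0.52 rests on at most 1.09 CPM in the HaCaT libraries. The ABCA1 call was lost when any 1 of 9 libraries was left out, with adjusted p from 0.056 to 0.22.

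**Figure D5:**
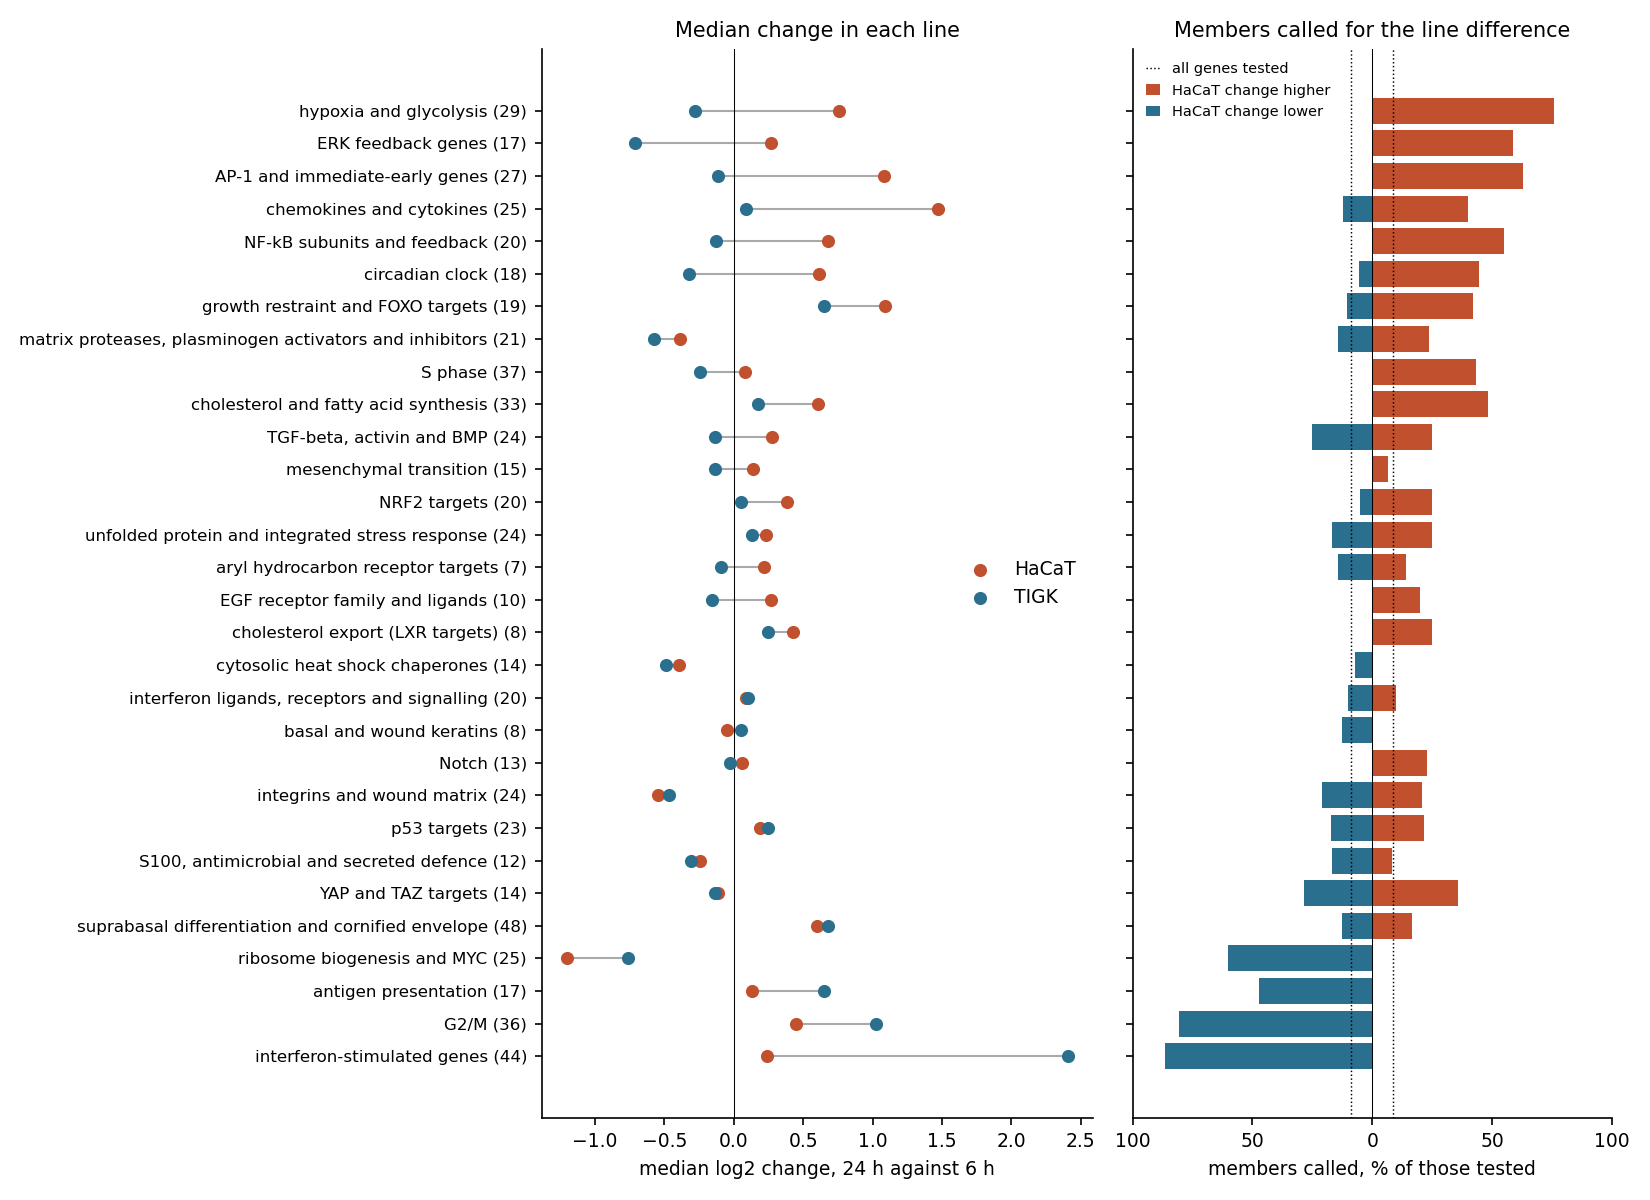
Gene lists with at least 7 genes tested (number in brackets), without the cell type markers and the mitochondrially encoded genes. Left, the median log2 change at 24 h against 6 h in HaCaT (orange) and TIGK (blue); right, the share of members called for the line difference, higher (orange, to the right) or lower (blue, to the left), with dotted lines at the shares of all genes tested, 8.85% and 8.69%. The interferon-stimulated, G2/M, antigen presentation and ribosome biogenesis lists have calls to the left, and the hypoxia, AP-1, ERK feedback, NF-kB, cholesterol and S-phase lists to the right.

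Many genes of matrix turnover fell in both lines. Of 21 proteases, plasminogen activators and inhibitors, 5 were called higher, 3 lower and 13 were not called; 10 fell in HaCaT and 13 in TIGK. ADAMTS1, a matrix protease, stood at 16.3, 16.3 and 16.6 CPM in HaCaT at 24 h and 24, 27.8 and 22.8 at 6 h. TIGK libraries stood at 4.45, 6.66 and 6.22 CPM at 24 h and 28.5, 36.8 and 33 at 6 h. The groups did not overlap in either line. The line difference was positive at 1.90 ± 0.21, with a log2 change of -0.60 ± 0.14 in HaCaT and a deeper fall of -2.50 ± 0.16 in TIGK. SERPINE2, protease nexin-1, fell further in HaCaT (-1.99) than in TIGK (-0.95).

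Of 24 integrins and wound matrix genes, 5 were called higher and 5 lower, and 17 fell in HaCaT and 15 in TIGK. LAMA3, a basement membrane gene, fell 2.04-fold in HaCaT and 1.32-fold in TIGK (line difference -0.63 ± 0.11). ITGA5, a subunit of the fibronectin receptor, stood at 59, 63 and 65.2 CPM in HaCaT at 24 h and 64.7, 54.1 and 56.8 at 6 h. It stood at 129, 123 and 123 CPM in TIGK at 24 h and 216, 202 and 185 at 6 h. The HaCaT groups overlapped and were not called apart, and ITGA5 fell in TIGK without overlap (-0.69 ± 0.09).

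Signals of the TGF-beta family did not part in 1 direction. Of 24 tested, 6 were called higher and 6 lower. INHBA, the subunit of activin A (chromosome 7, 41667168 to 41705834), rose to 89, 91 and 87.1 CPM in HaCaT at 24 h, against 36.9, 39.3 and 43.7 at 6 h. It fell to 40.3, 34.2 and 31.5 CPM in TIGK at 24 h, against 80.1, 77.1 and 73 at 6 h. The groups did not overlap in either line (line difference 2.27 ± 0.19, adjusted p = 7.7e-09). BMP2, a ligand, rose 4.5-fold in HaCaT and 1.65-fold in TIGK, and ID1, a textbook target of BMP signals, rose 2.58-fold in HaCaT and 5.68-fold in TIGK, and both were called for the line difference, BMP2 higher (1.44) and ID1 lower (-1.14). Of 14 YAP and TAZ target genes, 5 were called higher and 4 lower. CYR61, a secreted matricellular protein, stood at 184 ± 10.4 CPM in HaCaT at 24 h and 60.9 ± 5.35 at 6 h, and at 124 ± 12 in TIGK at 24 h and 156 ± 4.89 at 6 h. F3, tissue factor, was not called in HaCaT and fell 3.04-fold in TIGK, while NT5E, an ecto-nucleotidase, fell 3.17-fold in HaCaT and by 0.26 on the log2 scale in TIGK (adjusted p = 0.049).

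Keratinocyte keratins and differentiation genes had few calls or calls both ways. Of 8 basal and wound keratins, KRT17 was called lower (-0.37 ± 0.12, adjusted p = 0.032) and 7 were not called; the KRT17 call was lost when any 1 of 6 libraries was left out, with adjusted p from 0.058 to 0.089, and its reads can be shared with close relatives. Of 15 genes of mesenchymal transition, SNAI2 was called higher (0.47 ± 0.10) and 14 were not called. Of 48 suprabasal differentiation genes, 8 were called higher and 6 lower, and 26 rose in HaCaT and 21 in TIGK; the lower count was 1 without letter C of TIGK at 24 h, and 3 without letter A of HaCaT at 6 h or letter B of HaCaT at 24 h. By limma 3 were called lower at either pseudocount, and 13 higher on log2(FPKM + 1). TGM1, the transglutaminase that cross-links the cornified envelope, stood at 158, 157 and 166 CPM in HaCaT at 24 h and 54.2, 50.8 and 48.3 at 6 h. For TIGK the values were 63.2, 52.6 and 64.1 CPM at 24 h and 73.6, 66.2 and 59.7 at 6 h, with overlap (line difference 1.80 ± 0.13). CLDN1, a tight junction claudin, rose 3.58-fold in HaCaT and 1.53-fold in TIGK, and ALOXE3, a lipoxygenase of the skin barrier, had 1.70 ± 0.26. Members called lower included the early differentiation keratins KRT1 (-1.03) and KRT10 (-1.29), named after their values were seen.

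TP63, the master factor of stratified epithelia, was among the genes that crossed. It stood at 367, 388 and 346 CPM in HaCaT at 24 h and 228, 265 and 233 at 6 h, a rise, and at 277, 245 and 219.7 in TIGK at 24 h and 446, 399 and 349.7 at 6 h, a fall. No libraries of 24 h and 6 h overlapped in either line (line difference 1.29 ± 0.14). ITGB4, of the hemidesmosome, changed the other way (-0.30 in HaCaT, 0.32 in TIGK) without a change in the order of the lines. It averaged 1830 CPM in HaCaT at 24 h and 2260 at 6 h, and 1340 in TIGK at 24 h and 1070 at 6 h. Of 13 Notch genes, NOTCH3 (1.37 ± 0.24), HES1 (1.17 ± 0.23) and JAG2 (0.43 ± 0.11) were called higher and 10 were not called. Of 12 S100, antimicrobial and secreted defence genes 3 were called (25%, against 17.5% of all genes). The complement component C3 was called higher (0.92 ± 0.16), and S100A2 (-0.81 ± 0.18) and the protease inhibitor SLPI (-0.90 ± 0.20) lower.

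Clock and growth restraint genes were more often called higher than lower. Of 18 clock genes, 8 were called higher, ARNTL lower and 9 were not called. BHLHE40, a repressor that is also induced by hypoxia, stood at 299, 298 and 354 CPM in HaCaT at 24 h and 62.9, 64 and 68.3 at 6 h. The level in TIGK was 44.1, 41.7 and 41.9 CPM at 24 h and 42.7, 44.2 and 42.4 at 6 h. It rose 4.87-fold in HaCaT and was not called in TIGK (log2 change -0.02 ± 0.09). PER1 rose in both lines (1.87 and 0.55), and PER3 rose in HaCaT and fell in TIGK (0.96 and -0.49). Of 19 growth restraint and FOXO target genes, 8 were called higher and 2 lower; TSC22D3, a glucocorticoid-induced leucine zipper, rose 6.22-fold in HaCaT and 2.82-fold in TIGK. CCNG2 (1.27 ± 0.16) and CITED2 (0.92 ± 0.13) were called higher too.

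Stress programs gave mixed or few calls. Of 23 p53 target genes, 5 were called higher and 4 lower, with the antiproliferative gene BTG2 at 0.90 ± 0.12, ZMAT3 at -1.14 ± 0.17 and the DNA damage binding gene DDB2 at -0.54 ± 0.12; the higher count was 3 without letter A of TIGK at 6 h or letter C of HaCaT at 6 h. Of 24 genes of the unfolded protein and integrated stress responses, 6 were called higher and 4 lower; the higher count was 3 without letter B of TIGK at 6 h, letter A of TIGK at 24 h or letter C of HaCaT at 24 h. The chaperone HSP90B1 (-0.48 ± 0.10) and the disulfide isomerase PDIA4 (-0.43 ± 0.09), both of the endoplasmic reticulum, were lower, and TRIB3, a pseudokinase induced by ATF4, was higher (0.60 ± 0.12). Of 20 NRF2 target genes, 5 were called higher, among them GCLC (0.61 ± 0.11), ME1 (0.66 ± 0.12) and PGD (0.52 ± 0.12), and TALDO1 lower. Of 7 aryl hydrocarbon receptor targets, TIPARP was called higher (0.66 ± 0.10) and CYP1B1 lower (-1.16 ± 0.17). Of 14 heat shock chaperone genes, among them the mitochondrial HSPD1 and HSPE1, BAG3 was called lower (-0.52 ± 0.13), while 10 fell in HaCaT and 11 in TIGK. Of 13 mitochondrially encoded genes, MT-ND3 (-0.79 ± 0.14), MT-ND1 (-0.92 ± 0.17) and MT-CO1 (-0.43 ± 0.13) were called lower; letter C of TIGK at 6 h held the lowest level of each among the TIGK libraries of that time, and without that library the line differences were -0.74, -0.76 and -0.31, all still called.

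Several genes outside the lists were called in opposite directions in the lines. ANGPTL4, a secreted inhibitor of lipoprotein lipase, rose to 136, 117 and 171 CPM in HaCaT at 24 h, against 46, 36.9 and 37.4 at 6 h. It fell to 4.78, 3.92 and 3.9 CPM in TIGK at 24 h, against 8.52, 14 and 11.5 at 6 h. The groups did not overlap in either line (line difference 3.25 ± 0.23, adjusted p = 4.5e-10). LOX, the collagen cross-linking oxidase, averaged 7.32 ± 0.963 CPM in HaCaT at 24 h and 2.63 ± 0.731 at 6 h, and 122 ± 14.2 in TIGK at 24 h and 301 ± 67.3 at 6 h, so HaCaT stayed far below TIGK throughout. The neurotrophin receptor NGFR (1.16 in HaCaT, -1.19 in TIGK), the adhesion molecule MCAM (1.12 and -1.49) and the kinesin KIF26A (1.73 and -1.11) likewise rose in HaCaT and fell in TIGK.

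In the other direction, STK39, a kinase of ion transport, fell to 24, 20.9 and 23.9 CPM in HaCaT at 24 h, against 49.6, 61 and 52 at 6 h. It rose to 46, 47.1 and 41.5 CPM in TIGK at 24 h, against 25.4, 28.4 and 22.1 at 6 h. The adhesion receptor ADGRF1 (-0.88 in HaCaT, 1.17 in TIGK), the interleukin-15 receptor chain IL15RA (-1.26 and 0.85) and the microfibril protein MFAP5 (-0.82 and 0.89) did the same. The groups of 24 h and 6 h overlapped in none of these in HaCaT and in TIGK only for IL15RA.

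A further set had under 1 CPM on average at both times in 1 of the lines. NPTX1, a secreted pentraxin, stood below 1 CPM in every HaCaT library of 6 h and 24 h, and at 11.3, 10.5 and 6.63 CPM in TIGK at 24 h against 149, 138 and 139.6 at 6 h, a fall of 15-fold. G0S2, an inhibitor of lipolysis, and ZNF469 had no read in HaCaT at 6 h and at most 0.196 CPM at 24 h, so no fold is given for that line. In TIGK G0S2 averaged 10.5 ± 1.7 CPM at 24 h and 70.0 ± 8.63 at 6 h, and ZNF469 6.3 ± 2.18 and 40.1 ± 2.87. On the HaCaT side, MTUS2 averaged 34 ± 1.23 CPM at 24 h and 13.5 ± 1.4 at 6 h, LRRC7 20.7 ± 1.92 and 8.1 ± 0.752, and the transcription factor KLF12 16.5 ± 0.461 and 7.01 ± 1.1. Each of these 3 averaged under 1 CPM in TIGK at both times. The call of KLF12 was lost without letter C of TIGK at 6 h (adjusted p = 0.13), and that of MTUS2 without letter A at 6 h (0.25) or letter B at 24 h (0.052). That of G0S2 was lost without letter A (0.18) or letter C (0.061) of HaCaT at 24 h.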

How the data were processed

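RNA of HaCaT and TIGK keratinocytes was sequenced in 18 libraries, 12 of them from scratched cultures. The authors deposited whole-number read counts per gene; the tools named in the submitters' processing notes are featureCounts 1.5.0-p3, HISAT2 2.0.5 and StringTie 1.3.3b, with build hg38, while the annotation release and strand setting are not given in the sources used here. The authors also deposited FPKM values, counts per gene length and library size, used here as an alternative. Counts were fitted with edgeR 4.0.16 in R 4.3.3 (filterByExpr, TMM scaling, quasi-likelihood test, 6 group means over 18 libraries, 12 residual degrees of freedom), with Benjamini-Hochberg adjustment over all genes tested and a false discovery rate of 0.05. Fold changes use a prior count of 0.125, and standard errors were taken from the F statistic as an approximation. CPM values are TMM-scaled, with means ± SD of 3 libraries. The scripts were tested on simulated data.

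The members and lists were chosen with earlier results of these data known. Genes are named by a rule: protein-coding genes of unique symbol that are (a) the 12 largest line differences each way among called genes with at least 10 CPM in 1 of 4 groups and 1 CPM in each, (b) the 6 each way with the largest opposite changes, (c) the 4 largest changes per line among genes under 1 CPM in the other line, and (d) up to 3 members per list with the lowest adjusted p; others are said to be chosen after their values were seen, or bear on a count of 5 or fewer. TNF, IFNL1 and some of the cell type markers are named outside this rule. Columns carry letters A to C that the labels do not tie to replicate numbers. Alternatives were other scalings, filters, libraries, DESeq2 1.42.0 and limma 3.58.1 on log2(FPKM + 0.1) and log2(FPKM + 1). The hypoxia core, the CHR element and the gene families by symbol were added after seeing the data. Genes sharing a symbol (1745) are counted and not named. A few genes are not reported here.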

Additional observations from a re-analysis of the deposited data

Results flagged for a closer look

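The line difference is itself a test of whether the change at 24 h against 6 h differs between HaCaT and TIGK, and it was called for 3053 genes by the interaction contrast of edgeR. The 12 genes with the clearest opposite changes, each tested by the same contrast, are given here with their log2 line differences. HaCaT rose and TIGK fell for ANGPTL4 (3.25, adjusted p = 4.5e-10), EGLN3 (3.01, 2.6e-07), LOX (2.77, 3.0e-06), MCAM (2.61, 1.5e-05), NGFR (2.35, 3.3e-07) and INHBA (2.27, 7.7e-09). HaCaT fell and TIGK rose for DDX60L (-3.45, 4.7e-11), IL15RA (-2.11, 1.9e-04), STK39 (-2.07, 2.1e-09), ADGRF1 (-2.05, 1.3e-07), PARP12 (-1.98, 2.2e-08) and MFAP5 (-1.71, 2.2e-04). These genes were picked for their opposite changes, so their values are a description.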

How the results depend on the processing

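The count of 3053 genes was 3002 with RLE factors, 3041 with upper-quartile scaling, 3466 with DESeq2, 3017 without the filter, 3106 with 1 CPM in 3 libraries, 2857 from the 12 libraries alone, 3099 with limma on log2(FPKM + 0.1) and 3462 on log2(FPKM + 1). Scaling moved the median line difference by under 0.1, and 50.5% to 57.5% of calls were higher under these settings. Letters were not taken to pair the libraries: deviations of same-letter libraries at 6 h and 24 h correlated at -0.005 to 0.02 in HaCaT and 0.008 to 0.027 in TIGK, while those of TIGK at 0 h and 6 h correlated at 0.105, 0.094 and, for letter C, 0.388. With a replicate block by letter 3435 genes were called, 2997 of them among the 3053, and 49.4% of calls were higher. Without 1 library the count was 2500 to 3236 (1292 to 1615 higher, 1187 to 1621 lower), for HaCaT 5226 to 6494 (2557 to 3177 up, 2669 to 3317 down) and for TIGK 5466 to 6375 (2591 to 3088 up, 2875 to 3300 down). Without both TIGK letter C libraries at 0 h and 6 h it was 3295. Asking for an absolute log2 of at least 1 left 991 genes (655 higher, 336 lower), 1567 in HaCaT (999 up, 568 down) and 1572 in TIGK (838 up, 734 down), fewer by construction. The immune marker ITGAM, at 3.08 CPM in HaCaT at 24 h and 0.70 at 6 h, and 0.134 CPM in TIGK at 24 h and 0.0182 at 6 h, was not called at -0.22 and changed sign with limma on FPKM, 1.29 at a pseudocount of 0.1 and 0.43 at 1; the cause was not tested. MT-CO1 was not called by limma (adjusted p = 0.39 and 0.30), nor were KRT17 (0.15 and 0.12) and ALDOA (0.078 and 0.12). Low counts limit the calls: of 2930 genes averaging under 1 CPM over the 4 groups 2.53% were called, against 28.3% of 2101 at 100 CPM or more.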

Other observations

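Further gene families, taken by the start of their symbols after the values were seen, are given by their counts. Of 29 histone genes tested (symbols that start with HIST), 10 were called with a lower change in HaCaT (34.5%) and 19 were not called. Their median line difference was -1.06, against -0.02 over all genes. HIST1H2BD (-1.72), HIST1H2AC (-1.57), HIST2H2BE (-1.28) and HIST1H2BK (-1.27) were among them. Histone genes are near copies of each other, so their reads are uncertain. Of 95 cytosolic ribosomal protein genes, 22 were called lower (23.2%) and 2 higher (median -0.30). Of 78 mitochondrial ones 13 were called lower (16.7%) and 65 were not called (median -0.26). Of 38 proteasome subunit genes, which take in PSMB8 of the antigen presentation list, 7 were called lower (18.4%) and 0 higher. Over all genes tested 8.69% were called lower and 17.5% in either direction. The total shares of the mitochondrial ribosomal protein and proteasome genes thus lay near that of all genes, with all their calls lower.

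Some signalling families had more calls upward. Of 18 Eph receptor and ephrin genes, which code for contact signals between cells, 8 were called higher and 1 lower, with a median of 0.42. Of 21 dual-specificity phosphatase genes, some of them brakes on MAP kinases, 9 were called higher and 1 lower (47.6% called, median 0.39). They take in DUSP10 of the ERK feedback list. Of 1222 transcription factor genes 143 were called higher (11.7%) and 71 lower (5.81%). Their total share of 17.5% equalled that of all genes tested, of which 8.85% were called higher. Of 46 genes with a bZIP domain, the class of AP-1, 13 were called higher and 3 lower (34.8% called). This class takes in AP-1 genes of the immediate-early list.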
